A study of Mus musculus with 2 samples.

Results

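The unfolded protein response and the integrated stress response were described through 10 genes, Atf4, Atf6, Xbp1, Ern1, Ddit3, Trib3, Ppp1r15a, Asns, Chac1 and Herpud1. Their probes were found by gene name or by the RefSeq accession of the probe on the arrays, and all 10 were among the 15625 genes measured. The study compared 2 pools of sorted mouse cells. The colon pool held CX3CR1high CD11b+ CD11c+ cells of the large intestinal lamina propria, a connective tissue layer beneath the gut epithelium, from CX3CR1gfp/+ mice, which carry green fluorescent protein in place of an allele of the fractalkine receptor gene Cx3cr1. The blood pool held Ly6c+ CD11b+ monocytes of C57BL/6J mice. No age, treatment or time is given for either pool in the sources used here, and the design text gives n = 10 and n = 6 without saying what is counted. Both pools were hybridised together to 2 two-colour arrays, the second with swapped dyes, and count as 1 replicate here because the labels name the same 2 pools on both. Whether the same RNA extracts were used on both arrays is not stated in the labels. Cell type, tissue, strain and the way the cells were isolated all differed between the pools and cannot be told apart.

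The endoplasmic reticulum (ER) folds secreted and membrane proteins. When unfolded proteins build up there, the sensors IRE1alpha (encoded by Ern1), PERK (Eif2ak3) and ATF6 start the unfolded protein response, which slows translation and raises chaperones and the machinery that degrades misfolded proteins. PERK shares its substrate, the translation factor eIF2alpha, with kinases that sense amino acid lack, viral RNA and heme lack, and this common pathway, the integrated stress response, leads to translation of ATF4 and its target genes. In macrophages the same pathways are known to meet with inflammatory signalling. Much of their control lies in translation, cleavage, phosphorylation and splicing, which an array of transcript levels does not read.

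The stress genes did not move as a block. In the colon pool, 2 of the 10 genes were higher and 0 were lower. Ppp1r15a, which encodes GADD34, the inducible subunit that directs protein phosphatase 1 to eIF2alpha and ends the translation block, was 4.15-fold higher. Herpud1, which encodes a membrane protein of ER-associated degradation, was 3.81-fold higher. The transcripts of the transcription factors Xbp1 and Ddit3 and of the amino acid and glutathione enzymes Asns and Chac1 had mean log2 ratios between -0.03 and 0.18. A gene was called higher or lower when its ratio, colon over blood, was at least 2-fold in one direction on each array and the pool with more signal was well above background on both. By this rule 14.2% of all measured genes were higher and 4.47% were lower, so 2 of 10 (20%) is a share near the background. The median log2 ratio was 0.23 over the 10 genes and 0.06 over all measured genes, of which the middle 50% lay between -0.31 and 0.59. Of all calls 76.1% were higher, or 60.5% with the ratios of the scanner software. There is 1 pool of each kind, so no test was possible and every ± below is the SD between the 2 arrays and measures technical error only if both arrays used the same extracts. In pools, fewer cells of a type and less RNA per cell cannot be told apart.

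The sorted cells were checked against their markers. In the colon pool, 8 of 14 macrophage and dendritic cell markers were higher and 1 was lower, and 10 of 11 measured monocyte markers were lower with 0 higher. In each pool and on each array, 52.9% to 59.6% of spots were above background by the scanner's flag. All 10 stress genes were well above background in both pools on both arrays and none was saturated. With 1 pool of each kind on 2 arrays, the spread between pools could not be measured.

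Ppp1r15a had a normalized log2 signal of 16.08 in the colon pool and 14.00 in the blood pool on array 1, and of 16.21 and 14.18 on array 2. Its probe lies on chromosome 7, 52778320 to 52778379, in mouse build mm9. Before normalization the intensities were 86538 (colon, Cy5) and 13045 (blood, Cy3) on array 1, and 32788 (colon, Cy3) and 42750 (blood, Cy5) on array 2. The raw values of array 2 thus read higher in blood, the opposite of array 1, and the colon pool led on both arrays once the dyes were normalized. The log2 ratio was 2.05 ± 0.04, at percentile 93.7 of all measured genes.

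Herpud1 (chromosome 8, 96919117 to 96919176) gave normalized log2 signals of 13.81 in the colon pool and 11.85 in the blood pool on array 1. On array 2 these were 13.76 and 11.87. After normalization both arrays gave nearly the same distance. Before it the intensities were 17405 (colon) and 3017 (blood) on array 1, and 6540 (colon) and 7918 (blood) on array 2. As for Ppp1r15a, the raw values of array 2 read higher in blood. The log2 ratio was 1.93 ± 0.05, at percentile 93.0. Ppp1r15a lay above Herpud1 by 0.12 and 0.13 on the 2 arrays.

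**Figure D1:**
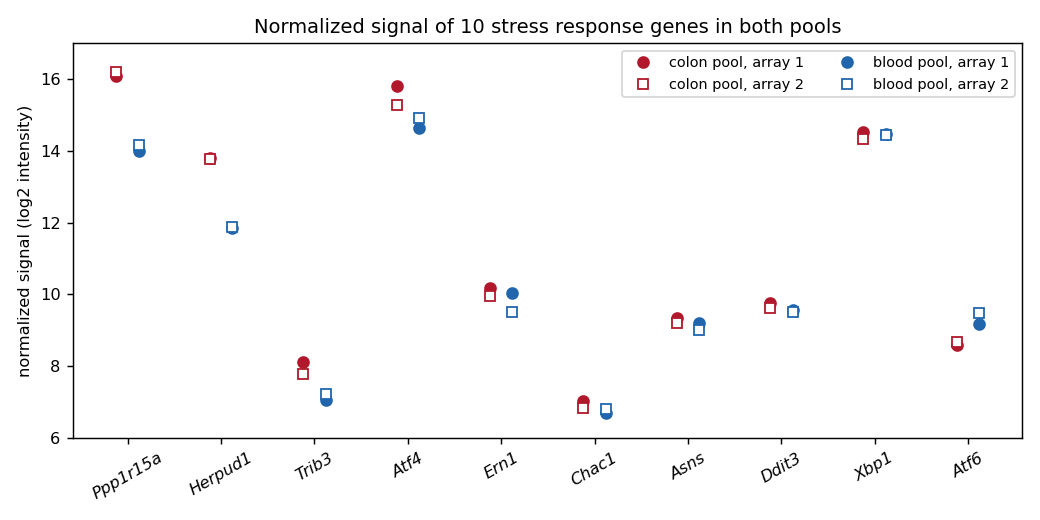
Normalized log2 signal (vertical axis, log2 intensity) of each of the 10 genes in the colon pool (red) and the blood pool (blue), on array 1 (filled circles) and array 2 (open squares). Signals can be compared between pools within a gene, not between genes; Ppp1r15a and Herpud1 show the widest gaps, with colon signals of 16.08 and 16.21 against 14.00 and 14.18 for Ppp1r15a.

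The promoters of the 2 higher genes and of 2 genes that were not called are shown because these genes hold known stress response motifs in the 250 bases before the start of transcription. Sequences are from RefSeq, build GRCm38.p6, 5′ to 3′ on the strand of the gene, with motif matches on either strand in capitals, and 9 of the 10 genes matched an entry, all but Atf6.
Ppp1r15a, chr7:45526269-45526518, minus strand: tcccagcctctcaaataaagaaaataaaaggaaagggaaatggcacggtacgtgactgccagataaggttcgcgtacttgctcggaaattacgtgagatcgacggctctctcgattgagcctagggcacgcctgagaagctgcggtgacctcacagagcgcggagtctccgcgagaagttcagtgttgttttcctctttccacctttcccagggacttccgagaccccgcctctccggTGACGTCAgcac
Herpud1, chr8:94386179-94386428, plus strand: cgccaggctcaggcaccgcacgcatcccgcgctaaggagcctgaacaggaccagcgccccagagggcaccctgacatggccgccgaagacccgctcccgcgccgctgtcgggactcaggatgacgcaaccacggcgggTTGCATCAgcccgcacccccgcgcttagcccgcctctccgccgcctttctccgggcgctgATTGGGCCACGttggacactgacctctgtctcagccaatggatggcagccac
Chac1, chr2:119350992-119351241, plus strand: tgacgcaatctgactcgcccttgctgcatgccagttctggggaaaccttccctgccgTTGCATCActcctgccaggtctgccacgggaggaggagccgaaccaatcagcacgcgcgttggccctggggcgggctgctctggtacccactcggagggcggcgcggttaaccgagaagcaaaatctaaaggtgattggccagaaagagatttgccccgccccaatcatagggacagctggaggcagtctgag
Asns, chr6:7693210-7693459, minus strand: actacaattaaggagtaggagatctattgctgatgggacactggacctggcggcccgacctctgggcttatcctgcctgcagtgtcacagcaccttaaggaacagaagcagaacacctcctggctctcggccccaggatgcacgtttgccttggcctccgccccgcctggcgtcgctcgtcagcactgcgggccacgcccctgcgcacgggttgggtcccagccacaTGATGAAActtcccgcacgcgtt
Both strands were searched for 5 motifs: the core of the C/EBP-ATF response element bound by ATF4 (TGATGNAA), the cAMP response element (TGACGTCA), the ER stress response element (CCAAT and CCACG with 9 free bases between them), the ER stress response element II (ATTGG and CCACG with 1 free base between them) and the core of the unfolded protein response element (TGACGTGG). No match overlapped another. Herpud1 held the ATF4 core on the minus strand, as TGATGCAA, 112 to 105 bases before the start, and the ER stress response element II, as ATTGGGCCACG, 52 to 42 bases before it. Its window ends in CCAAT, 9 free bases and CCAC. Whether an ER stress response element is completed there was not read, because the search stopped at the start. Ppp1r15a held the cAMP response element 12 to 5 bases before the start. Asns held the ATF4 core as TGATGAAA, 23 to 16 bases before the start, and Chac1 held it on the minus strand as TGATGCAA, 193 to 186 bases before it. Of 32851 promoters of the same length, 3.45% held the ATF4 core, 1.55% the cAMP response element, 0.113% the ER stress response element, 0.0304% the ER stress response element II and 0.563% the unfolded protein response element core. The ATF4 core stood in 3 of the 9 promoters, of which Herpud1 was called higher and Asns and Chac1 were not. A match describes the letters alone.

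The sensors came first in the pathway and neither was called. Ern1 encodes IRE1alpha, the kinase and nuclease that splices the Xbp1 transcript. Its probe (chromosome 11, 106258948 to 106259007) gave log2 signals of 10.17 in colon and 10.04 in blood on array 1, and 9.97 and 9.52 on array 2. The log2 ratio was 0.29 ± 0.23, with 0.12 and 0.45 on the 2 arrays. Atf6 encodes the sensor that is cut in the Golgi and moves to the nucleus as a transcription factor. Its probe (chromosome 1, 172635311 to 172635370) was dimmer in the colon pool, with log2 signals of 8.60 against 9.16 on array 1 and 8.68 against 9.47 on array 2. The log2 ratio of -0.67 ± 0.16, at percentile 10.8, was the lowest of the 10 genes and stayed short of 2-fold on each array. Eif2ak3, which encodes PERK and is given for its role and not by the rule for named genes, read -0.54 ± 0.32.

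Of the transcription factors, Atf4 was the least settled. Its brighter probe (chromosome 15, 80087902 to 80087961) gave log2 signals of 15.81 in colon and 14.64 in blood on array 1, and of 15.29 and 14.92 on array 2. The ratio was therefore past 2-fold on array 1 alone (1.17), was 0.37 on array 2, and averaged 0.77 ± 0.56. The second Atf4 probe (chromosome 15, 80086639 to 80086698) read 0.76 and 0.58, a mean of 0.67 ± 0.13. Both probes put the colon pool above the blood pool on each array, and neither was called.

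Xbp1 encodes the factor that, after splicing by IRE1alpha, raises genes of protein secretion and degradation, and it is known for high levels in plasma cells. Its probe (chromosome 11, 5425816 to 5425875) gave log2 signals of 14.53 in colon and 14.48 in blood on array 1. On array 2 these were 14.32 and 14.44. The order of the pools turned between the arrays, and the ratio was -0.03 ± 0.12. One probe reads the transcript level, and splicing was not measured here. Ddit3 encodes CHOP, a factor tied to cell death under lasting stress. Its probe covers 304 bases of chromosome 10 (126732518 to 126732821) although it is 60 bases long. The log2 signals were 9.76 in colon and 9.56 in blood on array 1, and 9.62 and 9.51 on array 2, with a ratio of 0.16 ± 0.07.

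Of the target genes, Trib3 came nearest to the rule. It encodes a pseudokinase that is induced by ATF4 and CHOP and dampens their action. Its probe (chromosome 2, 152163161 to 152163220) gave log2 signals of 8.12 in colon and 7.04 in blood on array 1, and of 7.77 and 7.22 on array 2. Its ratio passed 2-fold on array 1 (1.08) but not on array 2 (0.55), with a mean of 0.81 ± 0.37. This probe was dim, with intensities from 98.1 to 310.6 over a local background of 39 to 42, and with an offset of 16 in place of 50 the mean was 1.02 with array 2 still short of the rule (0.70).

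Asns encodes asparagine synthetase, which makes asparagine when amino acids run short. Its probe (chromosome 6, 7625171 to 7625228) gave log2 signals of 9.34 in colon and 9.20 in blood on array 1, and 9.19 and 9.002 on array 2. The ratio of 0.17 ± 0.03 was small and alike on both arrays. Chac1 encodes an enzyme that breaks down glutathione and is a classical ATF4 target. Its probe (chromosome 2, 119179990 to 119180049) was the dimmest of the 10 genes relative to its local background, with intensities of 134.3 and 69.0 in the colon pool and 67.8 and 122.9 in the blood pool over 34 to 43. The log2 signals were 7.03 in colon and 6.70 in blood on array 1 and 6.83 and 6.81 on array 2, and the ratio was 0.18 ± 0.22.

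**Figure D2:**
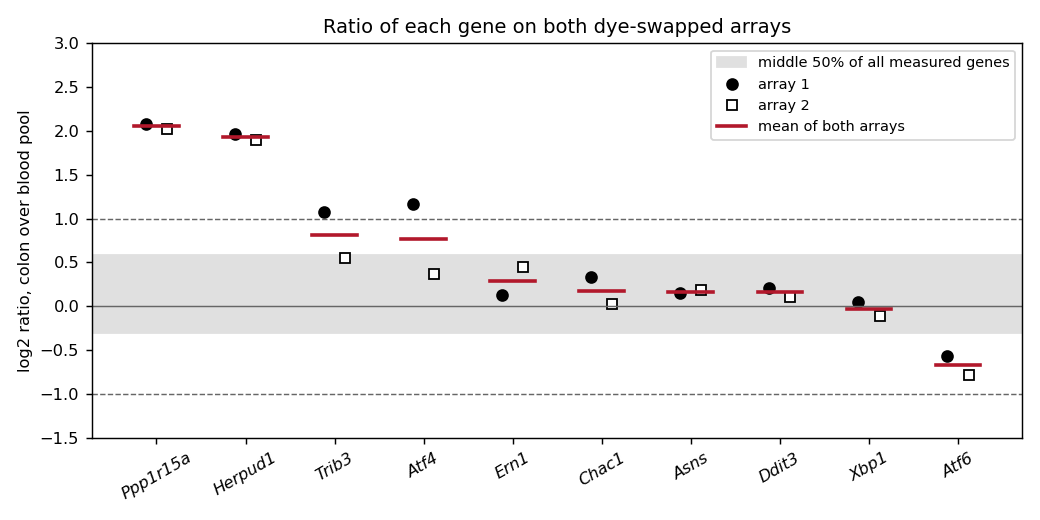
Log2 ratio, colon over blood (vertical axis), for each gene on array 1 (filled circles) and array 2 (open squares), with the mean as a red line, the 2-fold limits dashed and the middle 50% of all measured genes (-0.31 to 0.59) in grey. Ppp1r15a and Herpud1 lie near 2 on both arrays, Trib3 and Atf4 pass the upper limit on array 1 alone, and Atf6 lies lowest at -0.67.

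The order of the ratios, from high to low, was Ppp1r15a, Herpud1, Trib3, Atf4, Ern1, Chac1, Asns, Ddit3, Xbp1 and Atf6. Of the 45 pairs of these genes, 37 were in the same order on both arrays and 8 were not. All 8 were among the 15 pairs of Trib3, Atf4, Ern1, Chac1, Asns and Ddit3. The other 7 of these 15 kept their order, with Trib3 above Ern1, Chac1, Asns and Ddit3, and Atf4 above Chac1, Asns and Ddit3, on both arrays. The steps from Herpud1 to Trib3 and from Xbp1 to Atf6 were kept on both.

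The calls rested on the normalization within arrays. With each array centred on its median in place of the loess fit, which removes the dye effect that changes with intensity, 0 of the 10 genes were called and the median over all measured genes moved from 0.06 to -0.28. Ppp1r15a then read 2.47 on array 1 and -0.04 on array 2, a mean of 1.22. Herpud1 read 2.27 and 0.06, a mean of 1.17. Both means stayed above 0, while the means of Atf4 (-0.06), Ern1 (-0.34), Asns (-0.39) and Ddit3 (-0.45) turned below 0, as those of Asns (-0.11) and Ddit3 (-0.10) did with the scanner software's ratios. Xbp1 read -0.84 and Atf6 -1.23 under median centring. With the software's ratios Ppp1r15a (2.06) and Herpud1 (1.88) kept their calls, and Atf6 had a mean of -1.06 with -0.97 and -1.15 on the arrays.

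**Figure D3:**
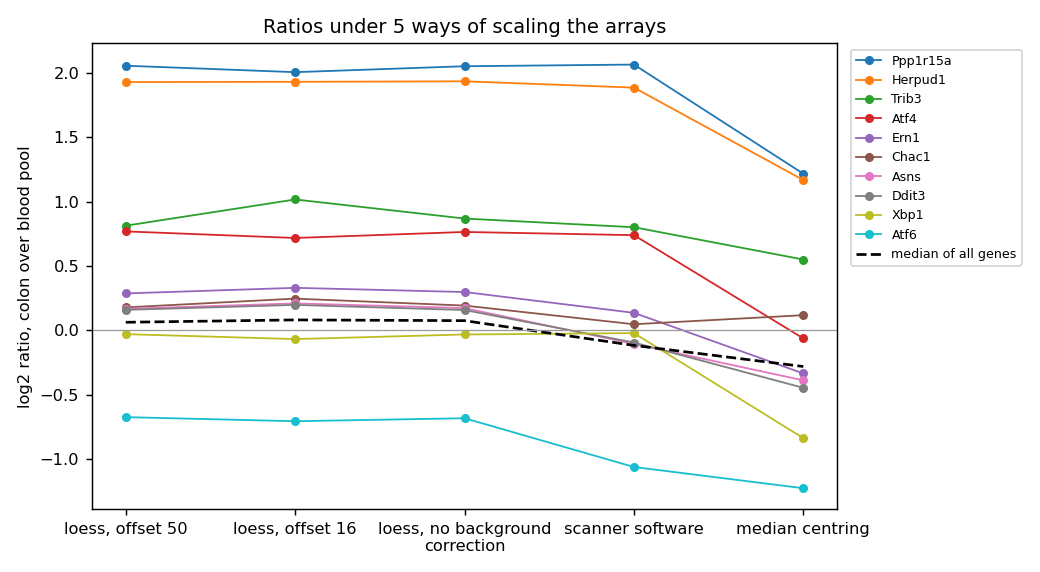
Mean log2 ratio over both arrays (vertical axis) of each gene under 5 ways of scaling the arrays (horizontal axis), with the median of all measured genes dashed. Ppp1r15a and Herpud1 are the upper lines throughout, near 2 under the first 4 ways and at 1.22 and 1.17 under median centring, where the dashed line lies at -0.28.

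The rest of the pathway was read from 10 lists with 177 other genes, all with a probe, of which 168 were measured. There 29 (17.3%) were higher and 2 (1.19%) lower in the colon pool, beside 14.2% and 4.47% of all genes, and the median was 0.15. The lists share some genes. Under median centring 8 of the 168 were higher and 1 was lower, beside 7.28% and 3.57% of all genes. With the scanner software's ratios 30 were higher and 5 lower, beside 20.3% and 13.3% of all genes. In both settings the share of higher genes was below that of all genes, unlike in the main setting.

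Among the other sensors and their machinery, 1 of 8 measured genes was higher and 1 was lower, with a median of 0.13. Traf2, an adaptor that links IRE1alpha to kinase signalling, was higher at 1.22 ± 0.08 from its brighter probe, while its other probe read 0.34. Bak1, a death effector of the BCL2 family that can bind IRE1alpha, was lower at -1.09 ± 0.06. Both lost their calls under median centring, and Traf2 also lost its call with the mean over its probes (0.78). Among the eIF2 kinases, eIF2 and eIF2B subunits and phosphatase subunits, 1 of 16 was higher and 0 were lower, and the median of -0.34 was below that of all genes. The higher gene was Impact, an inhibitor of the amino acid sensing kinase GCN2, at 2.59 ± 0.32. Its second probe, with a blood signal close to background, read 0.73, and Impact lost its call under median centring (1.93). The constitutive partner of Ppp1r15a, Ppp1r15b, given for its role, read -0.49 ± 0.19.

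Of 15 other transcription factors of the stress response, 4 were higher and 0 lower (median 0.25). Jdp2, a repressor of the AP-1 family, was the highest at 3.83 ± 0.10, followed by Atf5, a relative of Atf4 that is translated under the same control, at 2.24 ± 0.05. Nfe2l2, which encodes the oxidative stress factor NRF2, was higher at 2.08 ± 0.12. Of these 3, Jdp2 alone kept its call under median centring. Atf3, a common target of ATF4 given for its role, read -0.18 ± 0.10.

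Of 15 other ATF4 targets of stress signalling, 7 were higher and 1 was lower, with a median of 0.68. Under median centring 2 were higher and 1 was lower, with a median of 0.13. Gdf15, a secreted factor of the TGF-beta family, was 49.9-fold higher (5.64 ± 0.11) and had the largest ratio of all these lists. The autophagy receptor gene Sqstm1 (2.33 ± 0.11) and the vascular growth factor gene Vegfa (2.13 ± 0.26, with 3.03 from its other probe) were also higher. Eif4ebp1, an inhibitor of cap-dependent translation, was lower at -1.41 ± 0.09. Of 17 measured targets of amino acid supply, 7 were higher and 0 lower. The median was 0.88, or 0.41 under median centring, where 2 were higher and 0 lower. The aspartate aminotransferase gene Got1 (4.20 ± 0.22), the amino acid transporter heavy chain gene Slc3a2 (2.63 ± 0.10) and the glycine transporter gene Slc6a9 (1.85 ± 0.16) were the highest. Gdf15, Got1 and Eif4ebp1 kept their calls under median centring, whereas Sqstm1, Vegfa, Slc3a2 and Slc6a9 did not. None of 13 aminoacyl-tRNA synthetase genes, which ATF4 also controls, was called in either direction. Their median was -0.01, and the brightest, Gars and Sars, read -0.41 ± 0.13 and -0.19 ± 0.12.

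Of 24 measured genes of ER chaperones and folding enzymes, 5 were higher and 0 lower (median 0.49, and -0.13 under median centring). Hspa5, which encodes BiP, the major chaperone that holds the sensors inactive, was 6.16-fold higher. Its intensities were 122070 (colon) and 9994 (blood) on array 1, and 44577 (colon) and 49800 (blood) on array 2. Here too the raw values of array 2 read higher in blood. After normalization its ratio was 2.62 ± 0.48, with 2.96 and 2.28 on the arrays. The ER member of the HSP90 family, Hsp90b1 (1.28 ± 0.07), and Creld2 (1.24 ± 0.09) followed. Under median centring Hspa5 had a mean of 1.77, and 0 genes of this list passed on both arrays. In ER-associated degradation, the list that holds Herpud1, 1 of 24 other genes was higher and 0 were lower (median 0.16). That gene was Derl3, a channel component known from plasma cells, at 2.60 ± 0.10, whose blood signal cleared background on 1 of the 2 arrays. The relative of Herpud1, Herpud2, given for its role, read -0.17 ± 0.11. Of 34 genes of the secretory machinery linked to XBP1, 2 were higher and 0 lower, and the median was 0.01. They were Mcfd2, a cofactor of ER cargo export, at 1.75 ± 0.23, and the KDEL receptor gene Kdelr3, at 1.48 ± 0.11. The blood signal of Kdelr3 was not well above background on either array. Setting it to the higher of the lowest signal well above background and its own left the ratio at 2.80-fold, so this sets no separate lower bound. Of 7 measured genes linked to CHOP, 2 were higher and 0 lower, the death gene Bcl2l11 (2.30 ± 0.10) and the death receptor gene Tnfrsf10b (1.21 ± 0.09), with a median of 0.16. Under median centring Kdelr3 and Bcl2l11 kept their calls, and Mcfd2 (0.99) and Tnfrsf10b (1.16) did not.

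**Figure D4:**
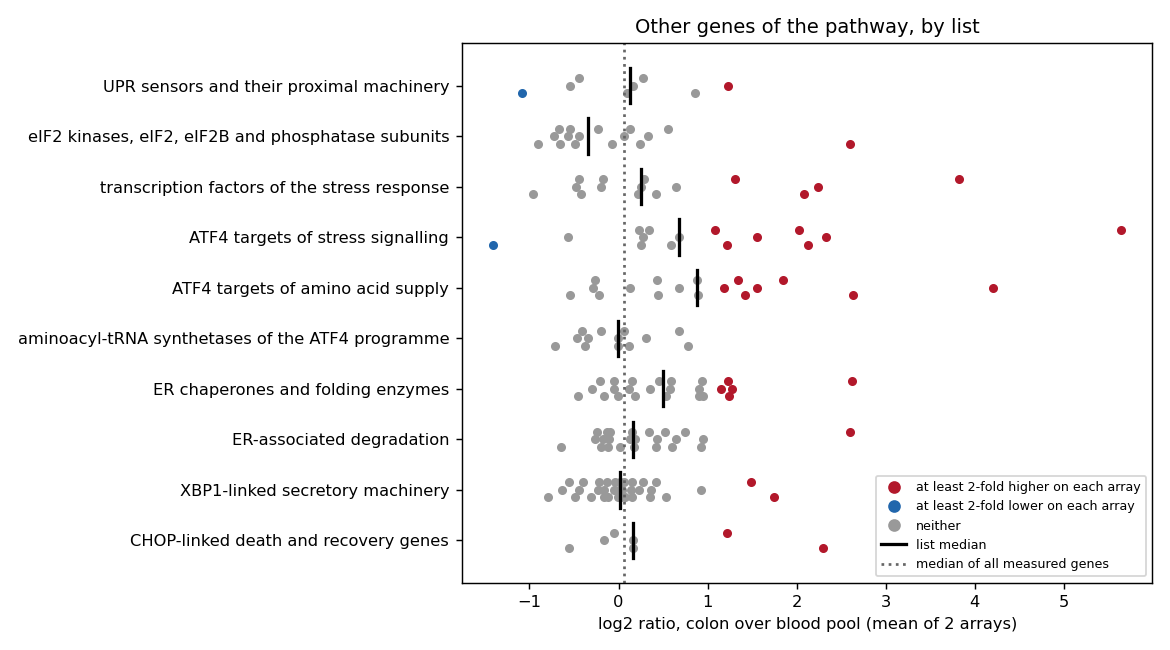
Log2 ratio, colon over blood (horizontal axis, mean of 2 arrays) for the other measured genes of the pathway, 1 point a gene, in 10 lists (rows); red genes were at least 2-fold higher and blue ones at least 2-fold lower on each array, black bars are list medians and the dotted line is the median of all measured genes. The medians run from -0.34 for the eIF2 list to 0.88 for amino acid supply, and Gdf15 is the point farthest to the right at 5.64.

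Markers of several other cell types were higher in the colon pool. Of the plasma cell and B cell markers, 11 of 13 measured were higher in colon (4 of 13 under median centring), and the highest ratios were those of Jchain, which joins antibody units (5.18 ± 0.22), Mzb1 (3.65 ± 0.18) and Pou2af1 (2.85 ± 0.17). The summed intensity of all 15 above local background was 48850 and 19020 in the colon pool and 2701 and 6432 in the blood pool on arrays 1 and 2, and 4 of the 15 did not clear background in the blood pool on either array. Of the goblet cell markers 9 of 10 were higher (summed intensity 1876 to 4562 in colon and 241.2 to 311.5 in blood). The highest were Clca1 (3.65 ± 0.18), the disulfide isomerase gene Agr2 (2.92 ± 0.13) and Spink4 (2.85 ± 0.23). The blood signal of Clca1 cleared background on 1 of the 2 arrays and that of Agr2 on neither. Creb3l1, also higher, was counted both here and among the transcription factors of the stress response. All 13 pancreatic acinar markers were higher (9904 to 26820 in colon, 391.6 to 882.5 in blood). The highest were Amy2a5 (6.27 ± 0.15), Try5 (4.76 ± 0.13, with a blood signal not well above background on either array) and Try4 (4.60 ± 0.15). In the blood pool 6 of 11 goblet and 5 of 13 acinar markers were not well above background on either array. Plasma, goblet and acinar cells are secretory cells known for abundant ER proteins. Fibroblast markers were higher for 13 of 14 (66860 to 161600 in colon, 1860 to 4368 in blood). The part of these cells in the ratios of Herpud1, Hspa5, Derl3 and the other stress genes was not tested.

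Genes of tissue dissociation and heat shock were higher for 15 of 24 and lower for 0, with a median of 1.77 and, under median centring, 0.96 with 7 higher. Hspa1a (4.86 ± 0.20), Hsp90aa1 (3.69 ± 0.00) and Hspb1 (3.39 ± 0.02), all heat shock genes, led the list. Several immediate early genes of the same list, picked after their values were seen, were not called: Fos read -0.40 ± 0.27, Ier2 -0.59 ± 0.07, Dusp1 -0.55 ± 0.16 and Nr4a1 -1.16 ± 0.31. They do not stand for the list or for its immediate early genes, since other immediate early genes were among the 15 that were higher. The summed intensity of all 24 genes of the list was 915800 and 322900 in the colon pool and 247400 and 672500 in the blood pool on arrays 1 and 2. The raw sums of array 2 were thus in the opposite order. The colon cells were isolated from tissue and the monocytes from blood, and the part of isolation in the ratios of Ppp1r15a and Herpud1 was not tested.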

How the data were processed

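Total RNA of both pools, 25 ng for each labelling, was amplified from an oligo-dT primer and hybridised to arrays of 60-base probes, per the labels' protocols. The deposited scanner files hold the intensity of each spot and of its surroundings, linear and not normalized, and a log10 ratio (red over green) from the software, per the file headers. The headers name Agilent Feature Extraction 10.7.3.1, the submitters' processing notes 10.5.1.1. In the deposited value table are the same log10 ratios turned to colon over blood, with a largest difference of 4.81e-08. Its centring is that of the software.

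Intensities were corrected with normexp and an offset of 50 on all spots and normalized by loess within each array, where control and outlier spots had weight 0 (limma 3.58.1, R 4.3.3). The ratio of array 2 was turned, spots of a probe were averaged, and the brightest probe gave the gene's value. The offset compresses ratios of dim genes. Of 43020 spots that are not controls, 29529 were named through RefSeq accessions, 8751 by the file's name and 4740 not at all. Genes counted as measured had 1 pool well above background on both arrays. Probe positions are on mm9 as the files give them.

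The genes and lists were chosen with earlier results of these data known. The rule for named genes took all 10 genes, up to 3 per direction of each other pathway list, or the 2 brightest where none passed, and up to 3 of each marker list. Genes given for their role were added after their values were seen. Endothelial, epithelial, T cell and neutrophil markers were higher for 4 of 10, 10 of 12, 8 of 11 and 0 of 11, and lower for 0, 0, 0 and 4. Alternatives covered background correction, scaling, probes, arrays, filters and fold thresholds.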

Additional observations from a re-analysis of the deposited data

How the results depend on the processing

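Median centring moved 8 of the 10 genes by more than the SD between the arrays, the scanner software's ratios 3, an offset of 16 moved 2 and no background correction 0. Aquantile scaling and both filters on dim probes leave these values as they are by construction. Ppp1r15a and Herpud1 kept their calls with the software's ratios, with an offset of 16, without background correction and on each array alone, and lost them under median centring. Herpud1 also lost its call at the 4-fold limit. The count of stress genes that were higher was 2 to 4 with 1 array left out: without array 2, Atf4 and Trib3 passed as well. Under median centring it was 0, with 8 other pathway genes and 1137 of all genes higher and 1 other pathway gene lower. Median centring leaves the dye effect that changes with intensity in the ratios of each array. The means over both arrays were lower as well, at 1.22 for Ppp1r15a and 1.17 for Herpud1. The part of the dye effect in the lost calls was not tested. With the scanner software's ratios, and with the deposited value table, 5 other pathway genes and 2072 of all genes were lower, against 2 and 699. At 1.5-fold, 3485 of all genes were higher, and 1719 of all and 8 other pathway genes lower. At 4-fold, 1 stress gene, 12 other pathway genes and 953 of all genes were higher, and 0 other pathway genes and 130 of all genes lower. No paired analysis was possible because the labels name the same 2 pools on both arrays, and whether these were the same extracts is not stated. The ratios of Chac1 and Trib3 are limited by signals close to background.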
